A study of Mus musculus with 30 samples.

Results

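Fibroblasts (FB) of the small intestinal and colonic lamina propria were compared in 12 of 30 bulk RNA-seq samples. These 12 were chosen by their labels as every sample of a pair of subsets that was sorted from both tissues, Fgfr2+ FB and PDGFRα hi FB, with 3 samples in each of 4 populations. All came from untreated C57BL6/Nrj mice of 8 to 10 weeks. Dead, Lineage+, CD31+, BP3+, EpCAM+ and NCAM hi cells were left out of every sort, and the muscularis externa and Peyer's patches had been removed from the tissue. Small intestinal Fgfr2+ FB were ESAM-1- and CD34- with intermediate PDGFRα, and colonic Fgfr2+ FB were ESAM-1-, CD34+ and CD90- with high PDPN. Small intestinal PDGFRα hi FB were ESAM-1- PDGFRα hi CD34- and colonic PDGFRα hi FB were ESAM-1- PDPN+ CD34-. Within each subset the gate therefore changed along with the tissue, and the part of each in a difference cannot be told apart. According to the labels the cells came from 3 individual mice, and replicates carry the labels' numbers. The p-values below measure the spread among these samples.

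Intestinal fibroblasts make the collagens, laminins and other matrix of the lamina propria and send growth factors to the epithelium, vessels and immune cells around them. FGFR2 is a receptor tyrosine kinase for fibroblast growth factors, NRG1 is an EGF family ligand for ERBB receptors, and TGF-β3 is a secreted regulator of matrix production and of immune cells.

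The sum of estimated counts was 15098412, 10286761 and 2245052 in the 3 samples of small intestinal Fgfr2+ FB, and 8740291, 9785938 and 9690792 in colonic Fgfr2+ FB. In PDGFRα hi FB it was 7327358, 18148945 and 8041204 in the small intestine and 7248567, 6865683 and 6986681 in the colon. Replicate 3 of small intestinal Fgfr2+ FB was thus the shallowest sample. The unit of level is CPM, the count relative to the TMM-normalized size of the library. In bulk samples, fewer cells of a type and less RNA per cell cannot be told apart.

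Transcripts of the sorting proteins were checked against the labels. *Pdgfra* was measured at 6207, 6855 and 6490.3 CPM in PDGFRα hi FB of the small intestine and 2388, 2399 and 2545 CPM in PDGFRα hi FB of the colon, against 669.9, 652 and 557 CPM in Fgfr2+ FB of the small intestine and 628, 726 and 821 CPM in Fgfr2+ FB of the colon. Every PDGFRα hi FB sample was therefore above every Fgfr2+ FB sample, in both tissues. *Esam*, the gene of the excluded ESAM-1 protein, lay at or below 1.74 CPM in all 12 samples. *Thy1*, which encodes CD90, was nevertheless found at 28.4, 23.7 and 27.8 CPM in Fgfr2+ FB of the colon, a population sorted as CD90-, and at no more than 2.45 CPM in the other 9 samples. *Cd34* and *Fgfr2* were among the genes whose tissue difference changed with the subset, and are described with them.

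The question asked of each gene was whether its difference between small intestine and colon was the same in both subsets. It was tested as an interaction, the log2 difference of small intestine minus colon in Fgfr2+ FB minus that in PDGFRα hi FB, with edgeR's quasi-likelihood test and Benjamini-Hochberg adjustment over all 15673 genes tested. A gene was called at an adjusted p below 0.05 with an absolute log2 value above 1.5. By this rule 201 genes (1.28%) were called for the interaction, 107 of them (0.683%) with a positive and 94 (0.6%) with a negative value, and the median over all genes tested was 0.0013. The difference between tissues itself was called for 485 genes (3.09%) in Fgfr2+ FB, 199 higher and 286 lower in the small intestine, and for 276 genes (1.76%) in PDGFRα hi FB, 100 higher and 176 lower. Which subset had more depended on the tool, since DESeq2 called 1081 in Fgfr2+ FB and 518 in PDGFRα hi FB, but limma voom 301 and 749. For the interaction DESeq2 called 563 genes, limma voom 272 and the model of all 30 samples 116. Between the subsets, 664 genes (4.24%) were called within the small intestine and 356 (2.27%) within the colon. The count in Fgfr2+ FB was 296 without replicate 2 and 274 without replicate 3 of colonic Fgfr2+ FB, and that in PDGFRα hi FB 183 without replicate 1 of small intestinal PDGFRα hi FB. Positive interaction calls numbered 69 without replicate 2 of colonic Fgfr2+ FB and 71 without replicate 1 of small intestinal PDGFRα hi FB, and negative ones 61 without replicate 1 of colonic PDGFRα hi FB.

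Most interaction genes had a called tissue difference in a single subset: 68 in Fgfr2+ FB only and 84 in PDGFRα hi FB only. Which of these groups was larger turned with the tool, at 255 and 147 genes with DESeq2 and 65 and 129 with limma voom. Another 10 were called in opposite directions, 8 in the same direction with unequal size, and 31 in neither subset taken alone. The opposite group held 27 genes with DESeq2, 11 with limma voom, 3 above a log2 value of 2 and 1 in the model of all 30 samples. A gene called in a single subset may differ in the other as well without passing the thresholds. Among the 68 genes called in Fgfr2+ FB only, small intestinal Fgfr2+ FB held the 3 lowest of the 12 samples for 33 genes and the 3 highest for 12, while colonic Fgfr2+ FB held the highest for 15 and the lowest for 11. Among the 84 called in PDGFRα hi FB only, small intestinal PDGFRα hi FB were lowest for 51 genes and highest for 15, and colonic PDGFRα hi FB highest for 12 and lowest for 10. These ranks come from the samples by which the genes were chosen, and were not tested.

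**Figure D1:**
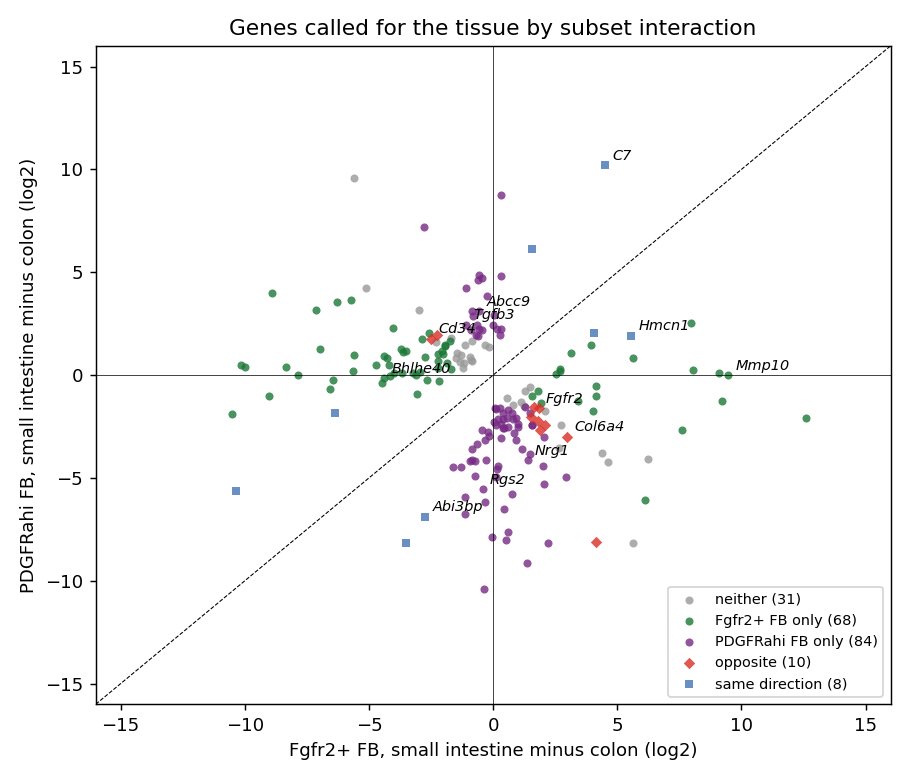
Each point is 1 of the 201 genes called for the interaction, with the log2 difference of small intestine minus colon in Fgfr2+ FB on the horizontal axis and in PDGFRα hi FB on the vertical axis, coloured by the subset or subsets in which that difference was called, and the dashed line marks equal differences. The 10 genes with opposite calls lie in the upper left and lower right, together with genes of opposite sign for which at most 1 of the differences was called; values of genes with a population at or near 0 counts rest on the prior count of the fit and have no exact size.

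*Fgfr2*, the gene that names its subset, differed between the tissues in opposite directions (chr7:130162451-133123350, GRCm38). It was measured at 1472, 1983 and 1489 CPM (small intestine) and 504, 459 and 457 CPM (colon) in Fgfr2+ FB, and at 40.3, 69.6 and 39.2 CPM (small intestine) and 112, 208 and 118 CPM (colon) in PDGFRα hi FB. The small intestine was high in Fgfr2+ FB and low in PDGFRα hi FB, the 4 populations did not overlap, and both colonic populations lay between the small intestinal ones. The interaction was 3.44 (SE 0.41, adjusted p = 0.00038), with a tissue difference of 1.84 in Fgfr2+ FB and −1.60 in PDGFRα hi FB. Across subsets, *Fgfr2* was therefore higher in Fgfr2+ FB by a log2 difference of 5.12 within the small intestine and of 1.68 within the colon.

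*Nrg1* (chr8:31814551-32884029) was a gene of colonic PDGFRα hi FB. Its level there was 354, 459.8 and 359 CPM, against 28.3, 33.8 and 6.202 CPM in PDGFRα hi FB of the small intestine. In Fgfr2+ FB it was 103, 49.4 and 49.8 CPM in the small intestine and 36.2, 22.2 and 20.2 CPM in the colon. All 3 samples of colonic PDGFRα hi FB stood above the other 9, and in Fgfr2+ FB the order was turned, with the small intestine above the colon in 3 of 3 samples. The interaction was 5.53 (SE 0.72, adjusted p = 0.0007). The tissue difference was called in PDGFRα hi FB (−4.15, SE 0.54) and not in Fgfr2+ FB (1.39, SE 0.48, adjusted p = 0.14). The interaction was not called for *Nrg1* in a model of all 30 samples of the series, where its log2 value was 5.47 (adjusted p = 0.057, range 2.8e-12 to 0.057 over the alternatives to the test, normalization, filter and samples).

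*Tgfb3* (chr12:86056745-86079041) went the other way in PDGFRα hi FB, with 115, 172 and 107 CPM in the small intestine and 21.6, 23.99 and 24.8 CPM in the colon. In Fgfr2+ FB it was 52.4, 48.9 and 72.6 CPM in the small intestine and 67.3, 143 and 170.3 CPM in the colon. Colonic PDGFRα hi FB held the 3 lowest of the 12 samples, and the tissues overlapped in Fgfr2+ FB. The interaction was −3.52 (SE 0.52, adjusted p = 0.0019), and the tissue difference was 2.44 (SE 0.37) in PDGFRα hi FB and −1.08 (SE 0.36, not called) in Fgfr2+ FB. Among 13 listed TGF-β ligands, receptors and latency proteins, all of them tested, edgeR called *Tgfb3* alone for the interaction (1.28% over all genes), DESeq2 called 2 and limma voom 3, and 5 had an unadjusted p below 0.05. *Pdgfra* itself was higher in PDGFRα hi FB of the small intestine than of the colon by 1.38 on the log2 scale and differed by −0.17 in Fgfr2+ FB, neither of which passed the size threshold. Its interaction of −1.55 (SE 0.22, adjusted p = 0.0015) lay just past that threshold and fell just inside it without replicate 3 of small intestinal Fgfr2+ FB (−1.50) or replicate 3 of colonic Fgfr2+ FB (−1.47).

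Besides *Fgfr2*, the 10 genes with opposite tissue differences included an integrin, a collagen chain, a transcription factor and a cytokine receptor. *Itgb3*, which encodes the β3 integrin subunit, had 662, 624 and 513 CPM (small intestine) and 141, 190.5 and 268 CPM (colon) in Fgfr2+ FB, but 46.9, 87.3 and 44.6 CPM (small intestine) and 175, 208 and 127 CPM (colon) in PDGFRα hi FB. As with *Fgfr2*, the highest and the lowest samples were both small intestinal. *Col6a4*, a collagen VI chain, had 359, 210.1 and 129 CPM (small intestine) and 12.1, 48.01 and 30.1 CPM (colon) in Fgfr2+ FB, and 21.6, 13.5 and 14.2 CPM (small intestine) and 117, 112 and 156 CPM (colon) in PDGFRα hi FB. Small intestinal Fgfr2+ FB and colonic PDGFRα hi FB were high, the other 6 samples were low, and the interaction was 5.98 (SE 0.67, adjusted p = 0.00034). *Tbx3*, a T-box transcription factor, was highest in colonic PDGFRα hi FB at 142, 228 and 222 CPM and lowest in colonic Fgfr2+ FB at 29.2, 26.1 and 39.2 CPM. In the small intestine it was 100.3, 90.03 and 72.99 CPM in Fgfr2+ FB, between the colonic populations, and 51.3, 65.9 and 33.2 CPM in PDGFRα hi FB, which overlapped colonic Fgfr2+ FB. *Il1rl2*, the receptor subunit for IL-36 cytokines, was measured at 314, 192 and 165 CPM in Fgfr2+ FB of the small intestine, 38.9, 111 and 48.7 CPM in Fgfr2+ FB of the colon, 8.71, 10.9 and 4.36 CPM in PDGFRα hi FB of the small intestine and 46.7, 21.95 and 40.6 CPM in PDGFRα hi FB of the colon. It was high in small intestinal Fgfr2+ FB and lowest in small intestinal PDGFRα hi FB, without overlap between the tissues in either subset. The interaction was 3.18 (SE 0.44, adjusted p = 0.0013) for *Itgb3*, 3.53 (SE 0.47) for *Tbx3* and 4.01 (SE 0.66, adjusted p = 0.0043) for *Il1rl2*. For *Tbx3* it was not called in the model of all 30 samples (3.45).

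*Otulinl* had 61.7, 24.4 and 23.5 CPM (small intestine) and 0.517, 3.61 and 2.22 CPM (colon) in Fgfr2+ FB, and 20.5, 5.74 and 38.3 CPM in PDGFRα hi FB of the colon, but 1, 0 and 1 counts in small intestinal PDGFRα hi FB (adjusted p = 0.00051). No size is given for its difference, since a population lay at the counting floor. In the opposite sense, 2 genes were higher in colonic Fgfr2+ FB and lower in colonic PDGFRα hi FB. *Cd34* was measured at 529.8, 389 and 564 CPM (colon) and 138, 84.7 and 34.9 CPM (small intestine) in Fgfr2+ FB, and at 31.7, 36.2 and 33.3 CPM (colon) and 102, 95.3 and 155 CPM (small intestine) in PDGFRα hi FB. The highest samples were those of the only population sorted as CD34+. The interaction was −4.26 (SE 0.55, adjusted p = 0.0007), with a tissue difference of −2.50 in Fgfr2+ FB, whose CD34 gate differed between the tissues, and 1.77 in PDGFRα hi FB, which were sorted as CD34- in both. *Mgp*, which encodes the mineralization inhibitor matrix Gla protein, had 319, 246 and 451 CPM (colon) and 81.8, 58.3 and 63.7 CPM (small intestine) in Fgfr2+ FB, and 19.97, 16.3 and 12.9 CPM (colon) and 83.5, 71.6 and 37.7 CPM (small intestine) in PDGFRα hi FB. Its interaction was −4.21 (SE 0.50, adjusted p = 0.00038), with the colon highest in one subset and lowest in the other. The number of genes with opposite calls was 6 without replicate 1 of small intestinal Fgfr2+ FB, replicate 1 or 3 of colonic Fgfr2+ FB or any 1 replicate of colonic PDGFRα hi FB.

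**Figure D2:**
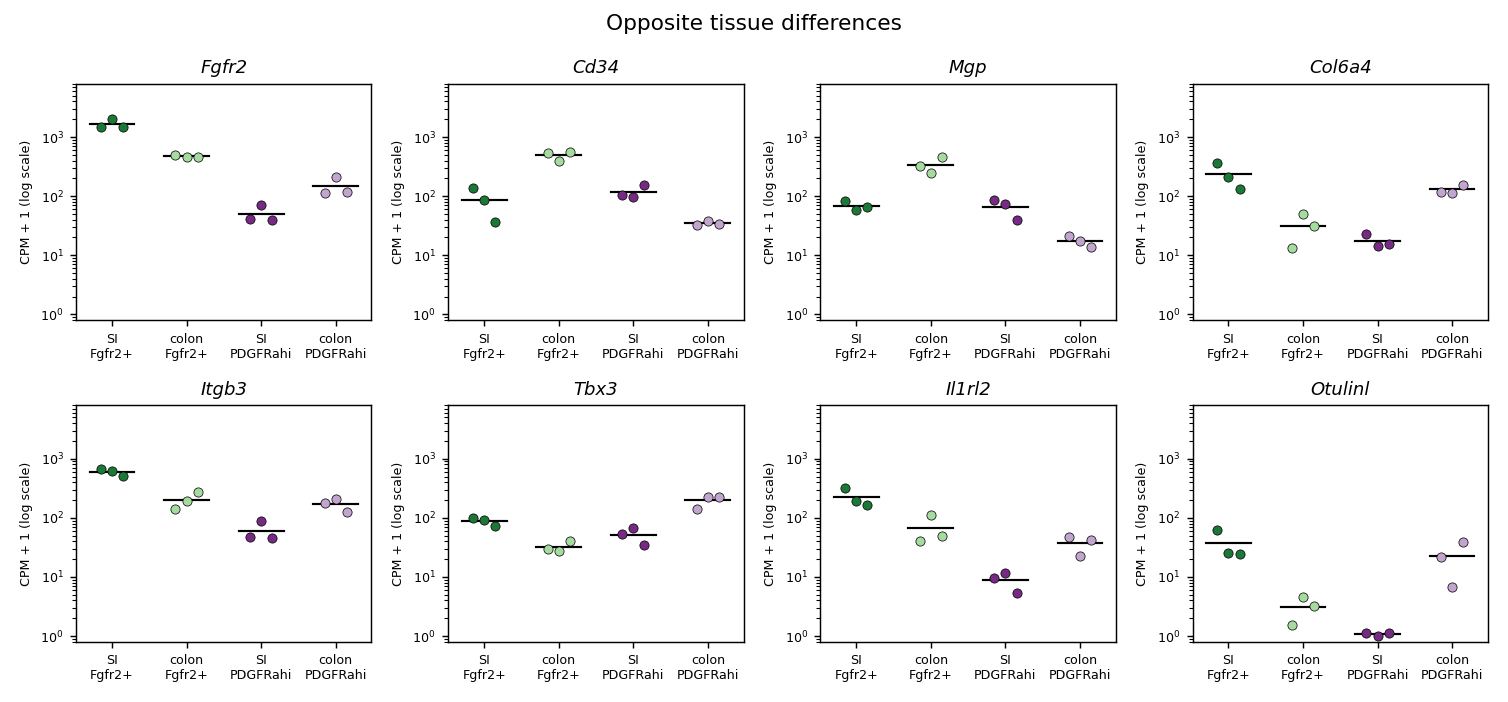
CPM + 1 on a log scale of 8 genes with opposite tissue differences in the 4 populations, with points for the 3 samples of each population and lines for their means. For Fgfr2 the means in CPM were 1648 (small intestine) and 473 (colon) in Fgfr2+ FB, with 49.7 (small intestine) and 146 (colon) in PDGFRα hi FB.

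Among the genes called in Fgfr2+ FB only, 21 had a positive interaction and were higher in the small intestine. *Mmp10*, a stromelysin that cleaves matrix proteins (chr9:7502352-7510240), was measured at 802, 905 and 593 CPM in Fgfr2+ FB of the small intestine and 0.3100, 1.27 and 1.78 CPM in Fgfr2+ FB of the colon. In PDGFRα hi FB it was 33.9, 15.5 and 97.6 CPM in the small intestine and 48.7, 26.4 and 70.6 CPM in the colon. Small intestinal Fgfr2+ FB stood above, and colonic Fgfr2+ FB below, all other samples, while the tissues overlapped in PDGFRα hi FB. The interaction was 9.46 (SE 0.93, adjusted p = 0.00017), and the tissue difference was 9.46 in Fgfr2+ FB and −0.0026 in PDGFRα hi FB. Both sizes of 9.46 are not exact, since colonic Fgfr2+ FB lay near 0 counts in the sample at 0.3100 CPM. *Lama1*, the α1 chain of laminin, had 251, 244 and 198 CPM in Fgfr2+ FB of the small intestine and 15.6, 35.6 and 14.8 CPM in Fgfr2+ FB of the colon, against 31.5, 21.7 and 18.1 CPM (small intestine) and 50.6, 48.5 and 67.9 CPM (colon) in PDGFRα hi FB. Small intestinal Fgfr2+ FB were the highest 3 of the 12 samples, and in PDGFRα hi FB the colon was the higher tissue. *Itga8*, the α8 integrin subunit that binds nephronectin, had 130.3, 223 and 85.1 CPM in Fgfr2+ FB of the small intestine and means of 9.198 ± 2.62, 1.88 ± 1.01 and 6.38 ± 4.34 CPM (± SD, n = 3) in colonic Fgfr2+ FB, small intestinal PDGFRα hi FB and colonic PDGFRα hi FB. The interaction was 4.69 (SE 0.55) for *Lama1*, which was not called in the model of all 30 samples (4.62), and 5.78 (SE 0.85, adjusted p = 0.0019) for *Itga8*.

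*Cxcl14*, a chemokine, was lowest in colonic Fgfr2+ FB at 4.34, 7.61 and 9.104 CPM and reached 118, 179 and 60.9 CPM in Fgfr2+ FB of the small intestine. Its levels in PDGFRα hi FB were 51.8, 67.7 and 23.9 CPM in the small intestine and 85.5, 128 and 64.6 CPM in the colon, where the tissues overlapped. *P2rx1*, an ATP-gated cation channel, had 83.4, 102 and 50.9 CPM in Fgfr2+ FB of the small intestine and no count in any sample of colonic Fgfr2+ FB. Against a floor of 3 counts per sample its mean was at least 253-fold higher in the small intestine, and in PDGFRα hi FB all 6 samples lay at or below 5.57 CPM (adjusted p of the interaction = 0.0012). *Ptgs1*, the constitutive cyclooxygenase, differed by less: 249, 255 and 239.7 CPM in Fgfr2+ FB of the small intestine, 83.6, 90.8 and 83.5 CPM in Fgfr2+ FB of the colon, 136, 223 and 143 CPM in PDGFRα hi FB of the small intestine and 298, 281 and 413 CPM in PDGFRα hi FB of the colon. Colonic Fgfr2+ FB were lowest and colonic PDGFRα hi FB highest. *Lrat*, which esterifies retinol for storage, had 220.1, 377 and 776 CPM in Fgfr2+ FB of the small intestine and at most 7.91 CPM in the other 9 samples. The interaction was 5.13 (SE 0.70, adjusted p = 0.0011) for *Cxcl14*, 2.59 (SE 0.36) for *Ptgs1* and 8.99 (SE 1.54, adjusted p = 0.0061) for *Lrat*. It was not called for *Ptgs1* in the model of all 30 samples (2.51), nor for *Lrat* without replicate 2 of colonic PDGFRα hi FB (6.30, adjusted p = 0.15). The size for *Lrat* is not exact, since colonic Fgfr2+ FB lay near 0 counts with a mean of 0.832 CPM.

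The other 47 genes called in Fgfr2+ FB only were lower in the small intestine. *Bhlhe40*, a transcriptional repressor tied to the circadian clock, was measured at 12.1, 11.5 and 20.8 CPM in Fgfr2+ FB of the small intestine, 328, 229 and 383 CPM in Fgfr2+ FB of the colon, 412, 255 and 324 CPM in PDGFRα hi FB of the small intestine and 356, 352 and 364 CPM in PDGFRα hi FB of the colon. Small intestinal Fgfr2+ FB were far below the other 9 samples, which lay between 229 and 412 CPM. *Nr1d1*, the clock repressor REV-ERBα, was likewise lowest there at 60.7, 89.3 and 36.3 CPM, against 528, 519 and 445 CPM in Fgfr2+ FB of the colon and between 167 and 246 CPM in the 6 samples of PDGFRα hi FB. *Steap3* and *Steap4* encode metalloreductases. *Steap3* had 2.59, 3.43 and 3.81 CPM (small intestine) and 38.3, 102 and 68.8 CPM (colon) in Fgfr2+ FB, and 190.2, 227 and 178 CPM (small intestine) and 87.3, 112 and 105 CPM (colon) in PDGFRα hi FB. It was thus lower in the small intestine in Fgfr2+ FB and higher there in PDGFRα hi FB, though the latter difference was not called. *Steap4* was nearly absent from small intestinal Fgfr2+ FB (1.05, 0.452 and 0 CPM) and measured at 63.4, 98.8 and 76.6 CPM in Fgfr2+ FB of the colon, 46.3, 18.2 and 17.00 CPM in PDGFRα hi FB of the small intestine and 18.7, 7.79 and 6.11 CPM in PDGFRα hi FB of the colon. The interaction was −4.24 (SE 0.44, adjusted p = 0.00023) for *Bhlhe40*, −3.14 (SE 0.42, adjusted p = 0.00088) for *Nr1d1*, −5.33 (SE 0.52, adjusted p = 0.00017) for *Steap3* and −8.26 (SE 1.01, adjusted p = 0.00051) for *Steap4*. The size for *Steap4* is not exact, since small intestinal Fgfr2+ FB lay near 0 counts.

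Matrix and growth factor genes were part of the same group. *Col12a1*, a collagen that associates with fibrils, had 752, 1160.3 and 933 CPM in Fgfr2+ FB of the small intestine and between 2991 and 5445 CPM in the other 9 samples. *Timp3*, an inhibitor of metalloproteinases, had 58.4, 158 and 61.9 CPM in Fgfr2+ FB of the small intestine, 695, 932 and 1058 CPM in Fgfr2+ FB of the colon and between 408 and 618 CPM in PDGFRα hi FB. For both genes small intestinal Fgfr2+ FB stood below all other samples. *Chrd*, the BMP antagonist chordin, was at 2.59, 0.0903 and 3.46 CPM (small intestine) and 43.6, 24.98 and 26.3 CPM (colon) in Fgfr2+ FB, and at 112, 131 and 40.1 CPM (small intestine) and 11.4, 25.4 and 18.6 CPM (colon) in PDGFRα hi FB. *Bmp6*, a BMP ligand, had 68.6, 57.4 and 28.4 CPM (small intestine) and 209, 235 and 195 CPM (colon) in Fgfr2+ FB, and 168, 210.0 and 79.5 CPM (small intestine) and 65.2, 76.8 and 75.3 CPM (colon) in PDGFRα hi FB. For this BMP ligand and for this antagonist the colon was above the small intestine in Fgfr2+ FB and below it in PDGFRα hi FB, in 3 of 3 samples each. *Igfbp5*, an IGF binding protein, had 397, 276 and 262 CPM (small intestine) and 1246, 1272 and 1929 CPM (colon) in Fgfr2+ FB, and 757, 831 and 1196 CPM (small intestine) and 730.4, 257 and 745 CPM (colon) in PDGFRα hi FB. The interaction was −2.47 for *Col12a1*, −3.34 for *Timp3*, −6.34 for *Chrd*, −3.05 for *Bmp6* and −2.87 for *Igfbp5*, with adjusted p between 0.00024 and 0.0069 for the genes other than *Bmp6*. That of *Bmp6* was not called in the model of all 30 samples (−3.12). The size for *Chrd* is not exact, since small intestinal Fgfr2+ FB lay near 0 counts in the sample at 0.0903 CPM.

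The summed level of immediate early genes, which are transcribed within minutes of a stimulus, was highest in colonic Fgfr2+ FB. Of 32 listed, 30 were tested, and 17 of these were called lower and 0 higher in small intestinal than in colonic Fgfr2+ FB, against 3.09% of all genes in either direction. In PDGFRα hi FB, 1 was called higher in the small intestine and 0 lower, against 1.76% of all genes. The median tissue difference of the list was −2.94 in Fgfr2+ FB and −0.43 in PDGFRα hi FB, beside 0.015 and 0.0038 over all genes tested. Their summed level was 1752, 1162 and 1350.5 CPM in Fgfr2+ FB of the small intestine, 5193, 10548 and 10248 CPM in Fgfr2+ FB of the colon, 2446, 1626 and 2134 CPM in PDGFRα hi FB of the small intestine and 2323, 2257 and 3280.2 CPM in PDGFRα hi FB of the colon. All 3 samples of colonic Fgfr2+ FB stood above the other 9, while small intestinal Fgfr2+ FB overlapped small intestinal PDGFRα hi FB. For the interaction edgeR called 6 of the 30, all negative (1.28% over all genes), DESeq2 11 and limma voom 7, with a median of −2.44 over the list beside 0.0013 over all genes, and 19 had an unadjusted p below 0.05. Heat shock genes, 18 listed and tested, summed to 2523, 2000.1 and 1924 CPM (small intestine) and 2257, 3523 and 5387 CPM (colon) in Fgfr2+ FB, and to 2547, 2704 and 2978 CPM (small intestine) and 2609.7, 2257 and 4055 CPM (colon) in PDGFRα hi FB. Their median interaction was −0.71, with 0 called by edgeR, DESeq2 or limma voom and 3 at an unadjusted p below 0.05. Both classes are also known to be induced by tissue dissociation and sorting, whose part in the result was not tested. Like every list here, these 2 were chosen with earlier results of the data known, so their shares are descriptive and no test.

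*Dusp1*, a phosphatase that inactivates MAP kinases, and *Btg2*, an antiproliferative cofactor, kept the interaction call in each of the 12 fits that left out 1 sample, while each of the other 4 lost it in at least 5 of them. *Dusp1* had 22.9, 31.3 and 77.5 CPM in Fgfr2+ FB of the small intestine, 381, 695 and 1082 CPM in Fgfr2+ FB of the colon, 314, 290.2 and 248 CPM in PDGFRα hi FB of the small intestine and 197, 247 and 342 CPM in PDGFRα hi FB of the colon. *Btg2* had 19.3, 28.6 and 14.5 CPM in Fgfr2+ FB of the small intestine, 82.04, 194 and 155 CPM in Fgfr2+ FB of the colon, 106, 85.5 and 175 CPM in PDGFRα hi FB of the small intestine and 43.1, 73.9 and 75.6 CPM in PDGFRα hi FB of the colon. Small intestinal Fgfr2+ FB were the lowest 3 of 12 samples for both, and the interaction was −4.07 (SE 0.62, adjusted p = 0.0025) for *Dusp1* and −3.64 (SE 0.59, adjusted p = 0.0037) for *Btg2*. Their promoters are shown because both hold the cAMP response element, the palindrome TGACGTCA, which reads the same on both strands and is in capitals below. It was found in 588 of 32851 RefSeq promoters of 300 bases (1.79%), and in 3 of the 36 promoters of the 27 immediate early genes that had any in the table. Counted by gene, at least 1 promoter held it in 549 of 27025 genes (2.03%) and in 3 of these 27, *Dusp1*, *Btg2* and *Maff*. A match describes the letters only. The sequences are on the minus strand of GRCm38.p6, at chr17:26508423-26508722 for *Dusp1* and chr1:134079106-134079405 for *Btg2*, written 5′ to 3′.
Dusp1: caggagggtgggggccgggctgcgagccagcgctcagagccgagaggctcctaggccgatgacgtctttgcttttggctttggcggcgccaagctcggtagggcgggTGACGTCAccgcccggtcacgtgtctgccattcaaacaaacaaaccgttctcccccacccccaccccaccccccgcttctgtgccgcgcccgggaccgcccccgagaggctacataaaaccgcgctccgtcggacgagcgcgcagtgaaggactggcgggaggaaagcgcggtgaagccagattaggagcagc
Btg2: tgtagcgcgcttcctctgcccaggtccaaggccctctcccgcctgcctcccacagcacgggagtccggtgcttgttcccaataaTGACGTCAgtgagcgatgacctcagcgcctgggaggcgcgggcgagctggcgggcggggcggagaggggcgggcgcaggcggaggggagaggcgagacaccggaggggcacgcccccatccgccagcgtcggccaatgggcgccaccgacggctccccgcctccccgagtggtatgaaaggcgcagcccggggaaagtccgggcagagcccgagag

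In PDGFRα hi FB, 61 genes called in that subset only had a positive interaction and were lower in the small intestine. *Rgs2*, a regulator of G protein signalling, had 3.88, 7.28 and 2.41 CPM (small intestine) and 209.6, 207 and 212 CPM (colon) in PDGFRα hi FB. It lay at 54.3, 64.1 and 48.1 CPM (small intestine) and 48.2, 84.8 and 97.7 CPM (colon) in Fgfr2+ FB. Small intestinal and colonic PDGFRα hi FB held the lowest and the highest samples, and the tissues overlapped in Fgfr2+ FB. *Ncam1*, a neural cell adhesion molecule, had 77.7, 98.2 and 95.9 CPM in PDGFRα hi FB of the small intestine and 698, 596 and 793 CPM in PDGFRα hi FB of the colon. In Fgfr2+ FB it was 1225, 1196 and 1126 CPM in the small intestine and 1371, 1187 and 1488 CPM in the colon. All 6 samples of PDGFRα hi FB thus lay below all 6 of Fgfr2+ FB, and those of the small intestine were the lowest, in a sort that left out NCAM hi cells of every population. *Ackr3*, a scavenging receptor for CXCL12, had 3.75, 2.14 and 2.297 CPM in PDGFRα hi FB of the small intestine and between 44.3 and 122 CPM in the other 9 samples. *Ctsc*, the protease cathepsin C, had 27.2, 23.3 and 19.9 CPM in PDGFRα hi FB of the small intestine, 152, 145 and 193 CPM in PDGFRα hi FB of the colon, 119, 76.4 and 80.9 CPM in Fgfr2+ FB of the small intestine and 45.3, 49.9 and 64.6 CPM in Fgfr2+ FB of the colon. The interaction was 5.13 (SE 0.55, adjusted p = 0.00025) for *Rgs2*, 2.82 (SE 0.27, adjusted p = 0.00017) for *Ncam1*, 4.58 (SE 0.51, adjusted p = 0.00034) for *Ackr3* and 3.66 (SE 0.44, adjusted p = 0.00038) for *Ctsc*.

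The spondin genes and *Thbs2*, which encode secreted matrix proteins, were low in small intestinal PDGFRα hi FB. *Spon2* had 5.76, 8.24 and 1.49 CPM (small intestine) and 281, 245 and 419 CPM (colon) in PDGFRα hi FB, against 404, 452 and 227 CPM (small intestine) and 407, 720.2 and 1338 CPM (colon) in Fgfr2+ FB. The related *Spon1* had 1.88, 1.58 and 1.61 CPM (small intestine) and 17.03, 35.5 and 32.99 CPM (colon) in PDGFRα hi FB, against 348, 299 and 247 CPM (small intestine) and 311, 327 and 473 CPM (colon) in Fgfr2+ FB. Both spondins were thus lowest in small intestinal PDGFRα hi FB, but colonic PDGFRα hi FB reached the range of Fgfr2+ FB for *Spon2* and not for *Spon1*. *Thbs2*, a thrombospondin, had 81.4, 69.99 and 148 CPM in PDGFRα hi FB of the small intestine and between 279 and 469 CPM in the other 9 samples. The interaction was 4.80 (SE 0.70, adjusted p = 0.0019) for *Spon2*, 3.84 (SE 0.45, adjusted p = 0.00038) for *Spon1* and 2.25 (SE 0.42) for *Thbs2*, and that of *Thbs2* was not called in the model of all 30 samples (2.18).

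*Sfrp1* and *Frzb*, which encode secreted Wnt antagonists, were higher in Fgfr2+ FB than in PDGFRα hi FB. *Sfrp1* had 4403, 4531 and 2677 CPM (small intestine) and 3225, 3409 and 3707 CPM (colon) in Fgfr2+ FB, with overlap, but 27.9, 35.6 and 29.2 CPM (small intestine) and 80.2, 165 and 145 CPM (colon) in PDGFRα hi FB. The tissue difference in PDGFRα hi FB (−2.11) therefore concerned levels far below those of Fgfr2+ FB. *Frzb* had 111, 62.4 and 32.5 CPM (small intestine) and 85.1, 25.1 and 12.8 CPM (colon) in Fgfr2+ FB, 4.899, 6.64 and 4.34 CPM in PDGFRα hi FB of the colon, and 0, 2 and 1 counts in small intestinal PDGFRα hi FB. Of 14 Wnt antagonists tested, edgeR called these 2 for the interaction, beside 1.28% of all genes (adjusted p = 0.003 for *Sfrp1* and 0.0072 for *Frzb*). Neither was called in the model of all 30 samples, and over the alternatives the adjusted p ranged from 7.3e-06 to 0.15 for *Sfrp1* and from 1.8e-05 to 0.28 for *Frzb*. *Fgf10*, a ligand of FGFR2, had 0.268, 1.13 and 1.49 CPM in PDGFRα hi FB of the small intestine, 28.05, 19.4 and 18.3 CPM in PDGFRα hi FB of the colon, 83.3, 64.3 and 42.2 CPM in Fgfr2+ FB of the small intestine and 144, 184 and 154 CPM in Fgfr2+ FB of the colon. The colon was higher in both subsets, and more so in PDGFRα hi FB, with an interaction of 3.18 (SE 0.63). That call was lost without replicate 2 of colonic Fgfr2+ FB (adjusted p = 0.052), replicate 3 of colonic Fgfr2+ FB (0.061) or replicate 1 of colonic PDGFRα hi FB (0.054), and in the model of all 30 samples (3.13 on the log2 scale). The size for *Fgf10* is not exact, since small intestinal PDGFRα hi FB lay near 0 counts in the sample at 0.268 CPM.

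The repressor genes *Zeb2* and *Snai2* were called in PDGFRα hi FB only as well. *Zeb2*, a zinc finger repressor, had 2403, 2181 and 2307 CPM (small intestine) and 2067, 2025 and 1739.9 CPM (colon) in Fgfr2+ FB, and 120.4, 136 and 116 CPM (small intestine) and 357, 347 and 415 CPM (colon) in PDGFRα hi FB. *Snai2*, the repressor SLUG, had 94.3, 80.6 and 109 CPM (small intestine) and 212, 145 and 206 CPM (colon) in Fgfr2+ FB, and 12.2, 4.46 and 4.48 CPM (small intestine) and 91.99, 114 and 165 CPM (colon) in PDGFRα hi FB. Both were lowest in small intestinal PDGFRα hi FB, and colonic PDGFRα hi FB lay near Fgfr2+ FB for *Snai2* and well below them for *Zeb2*. The interaction was 1.90 (SE 0.25, adjusted p = 0.0007) for *Zeb2* and 3.24 (SE 0.57, adjusted p = 0.0069) for *Snai2*. *Ptges*, a prostaglandin E synthase, had 14.9, 17.9 and 11.5 CPM (small intestine) and 106, 154 and 101 CPM (colon) in PDGFRα hi FB, and between 47.05 and 118 CPM in Fgfr2+ FB (3.37, SE 0.53, and 3.29 without a call in the model of all 30 samples). *Kcns3*, a subunit of voltage-gated potassium channels, had 0, 2 and 0 counts in PDGFRα hi FB of the small intestine, 9.55, 13.3 and 14.9 CPM in those of the colon, and between 7.03 and 33.1 CPM in Fgfr2+ FB (adjusted p = 0.0019).

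The other 23 genes called in PDGFRα hi FB only were higher in the small intestine. *Abcc9* encodes SUR2, the regulatory subunit of an ATP-sensitive potassium channel whose pore is encoded by its neighbour *Kcnj8* (chr6:142587862-142702315 and chr6:142564837-142571614). *Abcc9* had 1589, 1663 and 2100.5 CPM (small intestine) and 185, 214 and 212 CPM (colon) in PDGFRα hi FB, and 22.02, 50.3 and 51.2 CPM (small intestine) and 49.6, 56.1 and 83.2 CPM (colon) in Fgfr2+ FB. *Kcnj8* had 569, 710.0 and 427 CPM (small intestine) and 60.6, 74.9 and 58.5 CPM (colon) in PDGFRα hi FB, and 7.200, 40.4 and 16.3 CPM (small intestine) and 66.5, 33.5 and 17.8 CPM (colon) in Fgfr2+ FB. Small intestinal PDGFRα hi FB were the highest 3 of 12 samples for both neighbours, and the tissues overlapped in Fgfr2+ FB. The interaction was −3.66 (SE 0.44, adjusted p = 0.00043) for *Abcc9* and −3.94 (SE 0.76) for *Kcnj8*. That of *Kcnj8* was not called without replicate 1 (adjusted p = 0.0503) or replicate 3 (0.051) of colonic PDGFRα hi FB, nor in the model of all 30 samples (−4.01). *Kcnk2*, the mechanosensitive potassium channel TREK-1, had 235, 263 and 248 CPM (small intestine) and 12.4, 7.402 and 8.14 CPM (colon) in PDGFRα hi FB, with 86.9, 45.7 and 119 CPM (small intestine) and 82.8, 151 and 118 CPM (colon) in Fgfr2+ FB. Its highest samples were small intestinal PDGFRα hi FB and its lowest colonic PDGFRα hi FB, with an interaction of −5.14 (SE 0.54, adjusted p = 0.00024).

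*Col23a1*, a transmembrane collagen, had 311, 445 and 233 CPM in PDGFRα hi FB of the small intestine and between 2.82 and 28.2 CPM in the other 9 samples. *Itga11*, the α11 subunit of a collagen receptor, had 1740.5, 1962 and 1325 CPM in PDGFRα hi FB of the small intestine and between 134 and 313 CPM in the others. For both, small intestinal PDGFRα hi FB thus held the highest 3 of the 12 samples. The interaction was −5.43 (SE 0.77, adjusted p = 0.0015) for *Col23a1* and −2.43 (SE 0.36) for *Itga11*, the latter not called in the model of all 30 samples (−2.51). *Il33*, an alarmin cytokine, had 95.4, 83.3 and 102 CPM (small intestine) and 94.03, 40.6 and 93.9 CPM (colon) in Fgfr2+ FB, and 18.9, 25.1 and 5.28 CPM (small intestine) and 0.612, 0.893 and 0.136 CPM (colon) in PDGFRα hi FB. It was a transcript of Fgfr2+ FB in both tissues, and of PDGFRα hi FB at a lower level in the small intestine and near 0 in the colon. The interaction was −4.48 (SE 0.87, adjusted p = 0.014), a size that is not exact, since a population lay near 0 counts. Without replicate 3 of colonic PDGFRα hi FB, 54 genes were called in PDGFRα hi FB only in place of 84.

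**Figure D3:**
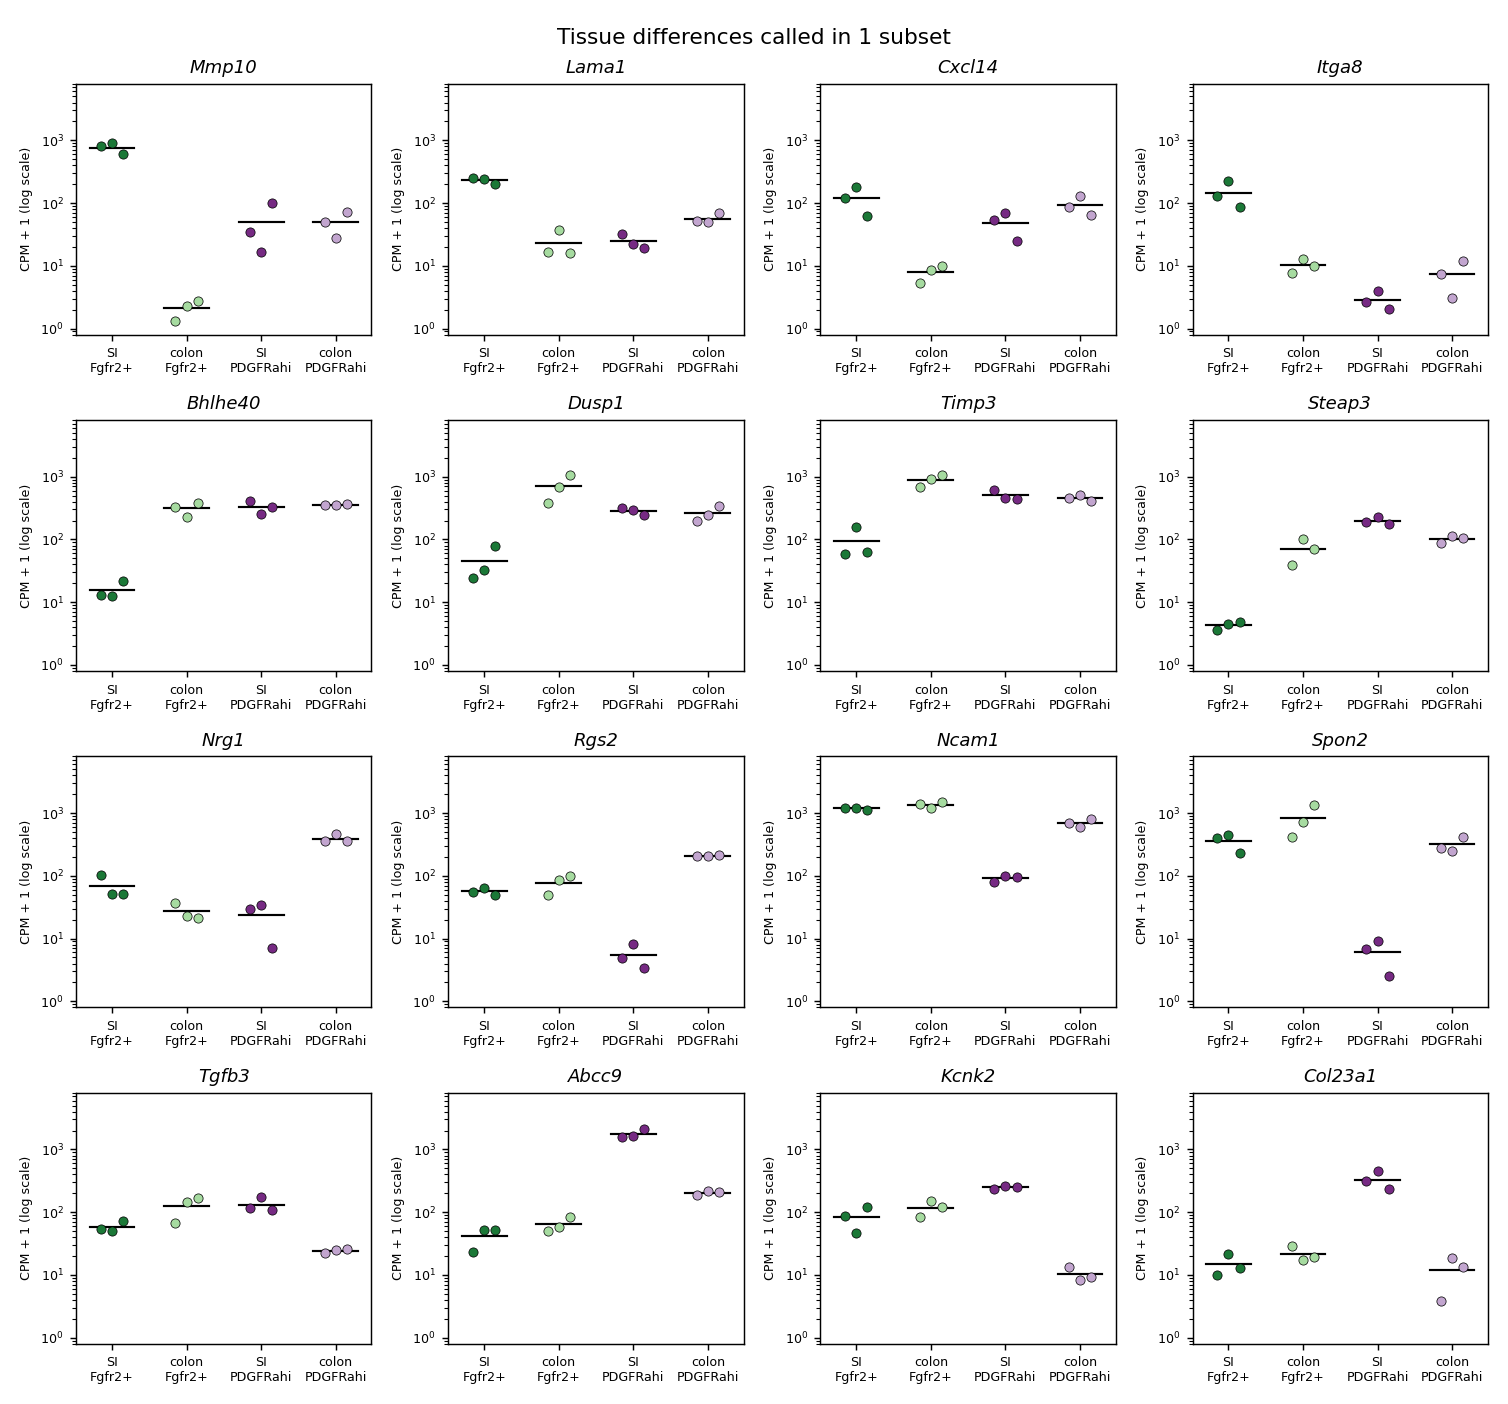
CPM + 1 on a log scale of 16 genes with a tissue difference called in 1 subset, with points for the 3 samples of each population and lines for their means. The first 8 panels hold genes called in Fgfr2+ FB only, such as Mmp10 with means of 767 CPM (small intestine) and 1.12 CPM (colon) in Fgfr2+ FB, and the last 8 hold genes called in PDGFRα hi FB only, such as Nrg1 with means of 22.7 CPM (small intestine) and 391 CPM (colon) in PDGFRα hi FB.

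For 8 genes the tissue difference had the same direction in both subsets and unequal size. *C7*, a terminal complement component, had 1177, 1327 and 1000.2 CPM (small intestine) and 0.122, 0.128 and 2.71 CPM (colon) in PDGFRα hi FB, and 231, 67.2 and 164 CPM (small intestine) and 5.58, 4.001 and 11.4 CPM (colon) in Fgfr2+ FB. *Ccl11*, the eosinophil chemoattractant eotaxin-1, had 1228, 1073 and 832 CPM (small intestine) and 6.98, 21.2 and 15.3 CPM (colon) in PDGFRα hi FB, and 2668, 1343 and 949 CPM (small intestine) and 597, 563 and 527 CPM (colon) in Fgfr2+ FB. Both were higher in the small intestine without overlap, and the difference was larger in PDGFRα hi FB, at 6.13 for *Ccl11*, against 1.58 in Fgfr2+ FB. *Hmcn1*, the basement membrane protein hemicentin-1, had 1826, 2009.8 and 1587 CPM (small intestine) and 49.7, 17.8 and 50.5 CPM (colon) in Fgfr2+ FB, and 190.5, 146 and 269.9 CPM (small intestine) and 55.7, 45.8 and 55.4 CPM (colon) in PDGFRα hi FB. *Col6a5*, a collagen VI chain like *Col6a4*, had 1181, 989.6 and 982 CPM (small intestine) and 40.6, 77.6 and 77.2 CPM (colon) in Fgfr2+ FB, and 226, 254 and 206 CPM (small intestine) and 42.01, 57.3 and 65.2 CPM (colon) in PDGFRα hi FB. For these 2 matrix genes the difference was larger in Fgfr2+ FB, whose small intestinal samples were the highest. The interaction was −5.70 (SE 0.96, adjusted p = 0.0052) for *C7*, −4.55 (SE 0.54, adjusted p = 0.00038) for *Ccl11*, 3.64 (SE 0.49, adjusted p = 0.0009) for *Hmcn1* and 2.03 (SE 0.37) for *Col6a5*. That of *Col6a5* was not called in the model of all 30 samples (1.95). The size for *C7* is not exact, since colonic PDGFRα hi FB lay near 0 counts in the samples at 0.122 and 0.128 CPM.

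In the other direction, *Abi3bp*, an extracellular matrix protein, had 139, 129 and 111 CPM (small intestine) and 904, 733 and 952 CPM (colon) in Fgfr2+ FB, and 0.804, 0.621 and 1.95 CPM (small intestine) and 113, 103 and 161 CPM (colon) in PDGFRα hi FB. The colon was higher in both subsets, and small intestinal PDGFRα hi FB were lowest, with an interaction of 4.14 (SE 0.48, adjusted p = 0.00038). *Scd1*, a fatty acid desaturase, had 0.349, 0.903 and 2.77 CPM (small intestine) and 85.6, 93.9 and 82.5 CPM (colon) in Fgfr2+ FB, and 51.6, 45.3 and 68.3 CPM (small intestine) and 252, 139 and 199.7 CPM (colon) in PDGFRα hi FB. Here the colon was also higher in both, and small intestinal Fgfr2+ FB were lowest, with an interaction of −4.50 (SE 0.71). The call of *Scd1* was lost in the model of all 30 samples (−4.46) and with limma voom (−3.93). *Fam129a* had 2, 1 and 2 counts in small intestinal Fgfr2+ FB, against 280.2, 224 and 307 CPM in Fgfr2+ FB of the colon, 2.28, 4.23 and 6.202 CPM in PDGFRα hi FB of the small intestine and 227, 159.9 and 232 CPM in PDGFRα hi FB of the colon (adjusted p = 0.0021, range 1.6e-06 to 0.28 over the alternatives, and not called with limma voom). The number of genes in this group was 5 without replicate 2 or without replicate 3 of colonic Fgfr2+ FB.

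For 31 genes the interaction was called while the tissue difference passed the thresholds in neither subset. *Ereg*, an EGF family ligand like *Nrg1*, had 258, 128 and 147 CPM (small intestine) and 62.4, 87.4 and 80.8 CPM (colon) in Fgfr2+ FB, and 72.5, 45.5 and 66.8 CPM (small intestine) and 150.4, 166 and 196 CPM (colon) in PDGFRα hi FB. *Il1r1*, the receptor for IL-1, had 286, 413 and 408 CPM (small intestine) and 224, 246 and 189.7 CPM (colon) in Fgfr2+ FB, and 107, 102 and 68.3 CPM (small intestine) and 205, 246 and 282 CPM (colon) in PDGFRα hi FB. Both were higher in the small intestine in Fgfr2+ FB and higher in the colon in PDGFRα hi FB, in 3 of 3 samples each. *Zeb1*, a relative of *Zeb2*, had 105, 51.4 and 73.7 CPM (small intestine) and 191, 203 and 203 CPM (colon) in Fgfr2+ FB, and 598, 697 and 827 CPM (small intestine) and 446, 355 and 536 CPM (colon) in PDGFRα hi FB. *Ednra*, an endothelin receptor, had 342, 386 and 240.4 CPM (small intestine) and 392, 459.5 and 387 CPM (colon) in Fgfr2+ FB, and 3106, 2758 and 2428 CPM (small intestine) and 863, 992 and 1078 CPM (colon) in PDGFRα hi FB. *Zeb1* went the other way, lower in the small intestine in Fgfr2+ FB and higher there in PDGFRα hi FB. *Ednra* was likewise higher there in PDGFRα hi FB (1.47 on the log2 scale). In Fgfr2+ FB the difference of *Ednra* was small (−0.32) and the samples of the tissues nearly met. For both genes the highest samples were small intestinal PDGFRα hi FB. The interaction was 2.74 (SE 0.45, adjusted p = 0.0043) for *Ereg*, 2.23 (SE 0.37, adjusted p = 0.0052) for *Il1r1*, −1.97 (SE 0.37, adjusted p = 0.012) for *Zeb1* and −1.79 (SE 0.29) for *Ednra*. In the model of all 30 samples that of *Ednra* was not called (−1.86), and without replicate 2 of colonic PDGFRα hi FB the 31 genes of this kind numbered 18.

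The interaction calls of edgeR were also counted by gene family. Of 13 FGF receptors and ligands tested, 4 were called, all positive, and of 12 EGF family genes 2 were, *Nrg1* and *Ereg*. Matrix genes were called in both directions, with 2 positive and 4 negative among 40 collagens, 5 and 2 among 50 elastic fibre, matricellular and proteoglycan genes, and 3 and 1 among 29 laminins and integrins. Among 32 potassium channel genes 1 was positive (*Kcns3*) and 3 were negative (*Abcc9*, *Kcnj8* and *Kcnk2*), and among 18 prostaglandin genes 3 were positive, *Ptgs1* and *Ptges* among them. Cytokine receptors had 3 positive calls of 43, chemokines 2 positive and 1 negative of 26, and regional or mesenchymal transcription factors 3 positive and 2 negative of 54. The median interaction was 0.26 for the FGF list, −0.12 for collagens, −0.33 for potassium channel genes and 0.64 for prostaglandin genes. With genes that had a population at 0 set to the floor of 3 counts, the potassium channel median was −0.27 and the others were as given. Over all genes 1.28% were called, with a median of 0.0013. The lists were chosen with earlier results of these data known, and those of the FGF and EGF families hold *Fgfr2* and *Nrg1*. The shares therefore describe the lists and are no test of a family.

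The number called depended on the tool. DESeq2 and limma voom called 4 and 2 of the FGF list, 2 and 2 of the EGF family, 11 and 4 collagens, and 12 and 11 elastic fibre, matricellular and proteoglycan genes. They called 7 and 5 laminins and integrins, 4 and 5 potassium channel genes, 5 and 5 prostaglandin genes, 5 and 3 cytokine receptors, 5 and 4 chemokines, and 10 and 8 of the transcription factors. In 3 further lists edgeR called 0 genes. There DESeq2 and limma voom called 0 and 1 of 11 Notch genes, 1 and 0 of 29 antigen processing and MHC genes, and 2 and 0 of 22 smooth muscle contractile genes, with 1, 3 and 5 at an unadjusted p below 0.05. Immediate early genes aside, the remaining lists with a call had 1 to 3 calls each with edgeR.

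Some positional and some interferon-induced genes were called for the tissue difference in either subset, and edgeR called none of them for the interaction. Of 32 *Hox* genes tested, which encode the anteroposterior positional code of the body axis, 7 were higher and 8 lower in small intestinal than in colonic Fgfr2+ FB, and 6 were higher and 8 lower in PDGFRα hi FB, beside 3.09% and 1.76% of all genes in either direction. *Hoxb3* had means of 119 CPM (small intestine) and 8.03 CPM (colon) in Fgfr2+ FB, and of 32.2 CPM (small intestine) and 2.68 CPM (colon) in PDGFRα hi FB. *Hoxa13*, a gene of the posterior end, had no count in the small intestinal samples of either subset and means of 36.7 and 51.3 CPM in colonic Fgfr2+ FB and PDGFRα hi FB. For the interaction edgeR called 0 *Hox* genes, as did DESeq2 and limma voom, with 6 at an unadjusted p below 0.05. Their median interaction was −0.29, and turned positive, at 0.02, with populations at 0 set to the floor of 3 counts. *Hoxb3* and *Hoxa13* were singled out after their values were seen. Of 56 interferon-induced genes, 14 were higher in small intestinal Fgfr2+ FB and 7 in small intestinal PDGFRα hi FB, and 0 lower, beside 3.09% and 1.76% of all genes, while the others were not called. edgeR called 0 of them for the interaction, DESeq2 4 and limma voom 1, and 8 had an unadjusted p below 0.05. Among 9 Wnt ligands and R-spondins tested, 0 were called for the interaction by edgeR, DESeq2 or limma voom, and 0 had an unadjusted p below 0.05. For the tissue difference 1 of them was called lower in the small intestine in Fgfr2+ FB and 1 in PDGFRα hi FB, and 0 higher, beside the same 3.09% and 1.76%.

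Markers of other cell types were measured beside these genes. Of 10 pericyte markers 8 were tested and 2, *Abcc9* and *Kcnj8*, were called for the interaction by edgeR, DESeq2 and limma voom alike, beside 1.28% of all genes with edgeR. The summed level of the 10 was 2199, 1877 and 2038 CPM (small intestine) and 539.9, 659.8 and 781 CPM (colon) in Fgfr2+ FB, and 2936, 3421 and 2941 CPM (small intestine) and 464, 411 and 497 CPM (colon) in PDGFRα hi FB. This sum was higher in the small intestine in both subsets, although the tissues overlapped for *Abcc9* and *Kcnj8* in Fgfr2+ FB. *Rgs5* was the most abundant in Fgfr2+ FB, at 1930.1, 1419 and 1778 CPM in the small intestine and 359, 426 and 533 CPM in the colon, and *Abcc9* in PDGFRα hi FB. Between the tissues, 4 of the 8 were called higher in the small intestine for PDGFRα hi FB and 1 for Fgfr2+ FB, and 0 lower, beside 1.76% and 3.09% of all genes in either direction. Those called in PDGFRα hi FB were *Abcc9*, *Kcnj8*, *Rgs5*, with 266, 363 and 152 CPM (small intestine) and 53.04, 45.7 and 61.1 CPM (colon), and *Cspg4*, with 496, 664 and 238 CPM (small intestine) and 153, 71.3 and 145 CPM (colon). *Esam* was near 0, as given above, and *Higd1b* was at 0 in all 6 samples of PDGFRα hi FB. The part of pericyte transcripts in the result was not tested. The 8 smooth muscle markers summed to 838, 936 and 575 CPM (small intestine) and 271, 333 and 568 CPM (colon) in Fgfr2+ FB, and 2279, 3799 and 2608 CPM (small intestine) and 1448, 1364 and 2378 CPM (colon) in PDGFRα hi FB. *Acta2* or *Myh11* was the most abundant, 0 were called for the interaction by edgeR, DESeq2 or limma voom, and 0 had an unadjusted p below 0.05. Between the tissues, 3 of the 8 were called higher in the small intestine for Fgfr2+ FB and 2 for PDGFRα hi FB, beside 3.09% and 1.76% of all genes in either direction.

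Of 3 markers of interstitial cells of Cajal, *Ano1* was called for the interaction (adjusted p = 0.028, beside calls for 1.28% of all genes), with 78.3, 76.96 and 81.4 CPM in PDGFRα hi FB of the colon and at most 3.11 CPM in the other 9 samples. *Ano1* was singled out after its values were seen. *Kit*, the defining marker of those cells, lay at 7.100, 8.52 and 43.4 CPM (small intestine) and 0.122, 0.128 and 1.900 CPM (colon) in PDGFRα hi FB, and *Etv1*, the most abundant of the 3 in all samples, at 469, 416 and 461 CPM (small intestine) and 151, 214 and 154 CPM (colon). For both, the samples of small intestinal PDGFRα hi FB lay above those of the colon, opposite to *Ano1*. Neither tissue difference was called, since edgeR called 0 of the 3 markers higher in small intestinal PDGFRα hi FB. Of 10 markers of CD81+ adventitial FB 9 were tested and *Cd34* alone was called, again beside 1.28% of all genes. Their sum was 1698, 1463 and 919.8 CPM (small intestine) and 1603, 1914 and 2607 CPM (colon) in Fgfr2+ FB, and 3977, 4696 and 1356 CPM (small intestine) and 1659.8, 1678 and 2198 CPM (colon) in PDGFRα hi FB, with *Gpx3* the most abundant. In small intestinal PDGFRα hi FB *Gpx3* made up most of the sum, at 3392, 4276 and 1041 CPM. *Ly6a* had 470, 312 and 152 CPM there, while *Cd81*, *Pi16* and *Ly6c1* did not exceed 0.804, 1.24 and 2.82 CPM. For the tissue difference 3 of the 9 were called lower in the small intestine for Fgfr2+ FB, and for PDGFRα hi FB 1 was called higher and 1 lower, beside the same 3.09% and 1.76%. Replicate 3 of colonic Fgfr2+ FB stood out with 146 CPM of *Cd81* and 74.9 CPM of *Pi16*, against at most 30.6 and 11.0 CPM in the other 11 samples. Without that sample 148 genes were called for the interaction, and 137 of these were among the 201. Of 10 markers of glia and neurons 4 were tested, and *Ncam1* was the most abundant and the only 1 called (1.28% over all genes), and *Elavl4* was at 0 in all 12 samples.

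Transcripts of the epithelial, endothelial and leukocyte cells removed by the sort were low. The 20 epithelial markers summed to 76.97, 8.04 and 10.7 CPM (small intestine) and 9.09, 9.27 and 3.78 CPM (colon) in Fgfr2+ FB, and 6.698, 10.4 and 5.63 CPM (small intestine) and 12.5, 5.49 and 124 CPM (colon) in PDGFRα hi FB. The higher values came from *Lgals4* in replicate 1 of small intestinal Fgfr2+ FB (74.2 CPM) and *Muc2* in replicate 3 of colonic PDGFRα hi FB (118 CPM), while *Krt8* and *Krt20* were at 0 in all 12. The 12 endothelial markers summed to between 41.7 and 110.5 CPM, with *Pecam1* the most abundant in 11 samples and *Cldn5* at 0 in 11, and the 19 leukocyte markers to between 20.8 and 89.0 CPM. Of these 3 lists edgeR called 0 genes for the interaction among 5, 9 and 8 tested (1.28% over all genes), as did DESeq2, and limma voom called 0; 0, 2 and 2 had an unadjusted p below 0.05. Between the tissues edgeR called 1 leukocyte marker, lower in the small intestine for Fgfr2+ FB. The part of these cells in the results was not tested.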

How the data were processed

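The authors trimmed the 30 libraries (Trim Galore 0.4.0), checked them (FastQC 0.11.2) and deposited estimated counts per transcript from kallisto 0.42.5, whose transcript set is not given in the sources used here. Of 98492 transcripts, 97116 were matched to 32342 genes by GENCODE M21, and their counts were summed and rounded. A gene was kept if 3 or more of the 12 libraries had 6 or more counts of it, with TMM factors and 1 mean per population, in edgeR 4.0.16 (limma 3.58.1, R 4.3.3, python 3.11.15). A call needed an adjusted p below 0.05 and an absolute log2 value above 1.5. The code was tested on simulated data. With 3 samples per population the precision is given by the standard errors.

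Alternatives were DESeq2 1.42.0, limma voom with sample quality weights, RLE and upper-quartile factors, other filters and thresholds, the replicate number as a block, a model of all 30 libraries and each library left out. The genes that could be named were *Nrg1*, *Fgfr2* and *Tgfb3*, the 5 with the smallest interaction p in each sign of 4 patterns (all but neither) among those with a mean of at least 10 CPM in their highest population and a standard symbol, called members of 31 gene lists, and the genes of the sorting proteins, 88 in all, of which 82 were called and 0 shared 50% or more of their 31-base words with other genes, as 4 of the 201 interaction genes did. Members and lists were chosen with earlier results of these data known.

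Some choices were made after seeing the data. Which of the 88 genes the text describes was decided with their values in view and with preference for those called in all 12 fits that left out 1 library (57 of 82), so the text over-represents stable calls. CPM were computed with TMM factors from filtered and from unfiltered genes (*Fgfr2* in small intestinal Fgfr2+ FB 1648 and 1685 CPM, ratio over 12 samples 0.961 to 1.06), and the filtered form was used because the fits filter first. List medians with populations at 0 set to a floor of 3 counts were added, as were the choice of markers and *Hox* genes named from the lists.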

Additional observations from a re-analysis of the deposited data

Results flagged for a closer look

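Each of the genes below was listed because its difference between small intestine and colon was not the same in the 2 subsets, by the test of the interaction itself (small intestine minus colon in Fgfr2+ FB, minus the same in PDGFRα hi FB). Values are log2, or the adjusted p where a population lay at the counting floor.

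Among genes called in opposite directions, the value was 3.44 for *Fgfr2*, 5.98 for *Col6a4*, 3.53 for *Tbx3*, 3.18 for *Itgb3*, −4.21 for *Mgp*, −4.26 for *Cd34* and 4.01 for *Il1rl2*. The adjusted p was 0.00051 for *Otulinl*. With the same direction in both, the value was 4.14 for *Abi3bp*, 3.64 for *Hmcn1*, 2.03 for *Col6a5*, −4.55 for *Ccl11*, −4.50 for *Scd1* and −5.70 for *C7*. The adjusted p was 0.0021 for *Fam129a*.

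Where the tissue difference was called in Fgfr2+ FB only, the value was 9.46 for *Mmp10*, 4.69 for *Lama1*, 5.13 for *Cxcl14*, 2.59 for *Ptgs1*, −5.33 for *Steap3*, −4.24 for *Bhlhe40*, −2.47 for *Col12a1*, −8.26 for *Steap4*, −3.14 for *Nr1d1*, −3.05 for *Bmp6*, −6.34 for *Chrd*, 8.99 for *Lrat*, 5.78 for *Itga8*, −3.34 for *Timp3*, −4.07 for *Dusp1*, −3.64 for *Btg2* and −2.87 for *Igfbp5*. The adjusted p was 0.0012 for *P2rx1*.

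Where it was called in PDGFRα hi FB only, the value was 5.53 for *Nrg1*, −3.52 for *Tgfb3*, 2.82 for *Ncam1*, 5.13 for *Rgs2*, 4.58 for *Ackr3*, 3.84 for *Spon1*, 3.66 for *Ctsc*, −5.14 for *Kcnk2*, −3.66 for *Abcc9*, −5.43 for *Col23a1*, −2.43 for *Itga11*, 2.31 for *Sfrp1*, 3.18 for *Fgf10*, −4.48 for *Il33*, 2.25 for *Thbs2*, 4.80 for *Spon2*, 1.90 for *Zeb2*, 3.24 for *Snai2*, 3.37 for *Ptges* and −3.94 for *Kcnj8*. The adjusted p was 0.0072 for *Frzb* and 0.0019 for *Kcns3*. Among genes called in neither subset taken alone, the value was 2.74 for *Ereg*, −1.55 for *Pdgfra*, 2.23 for *Il1r1*, −1.97 for *Zeb1* and −1.79 for *Ednra*.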

How the results depend on the processing

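No called gene of the 82 covered by the naming rule changed direction under any alternative. Of these 82, DESeq2 called 80, RLE factors 81, upper-quartile factors 80, no filter 82, a filter of at least 10 counts 80, voom 70 and the model of all 30 libraries 55. The interaction count of 201 was 563 with DESeq2, 339 without a filter and 116 with all 30 libraries. With DESeq2 the tissue difference was called for 1081 genes in Fgfr2+ FB (485) and 518 in PDGFRα hi FB (276), with all 30 libraries for 255 and 166, and with voom for 301 and 749. Positive calls (107) numbered 294 with DESeq2, 178 without a filter and 54 with all 30 libraries, and negative calls (94) numbered 269, 161 and 62.

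By pattern, Fgfr2+ FB only (68) was 255 with DESeq2, 136 without a filter and 42 with all 30 libraries, and PDGFRα hi FB only (84) was 147 with DESeq2, 42 with all 30 libraries and 129 with voom. Opposite calls (10) were 27 with DESeq2, 1 with all 30 libraries and 3 above a log2 value of 2. The same direction (8) held 18 with DESeq2, 13 without a filter, 5 with all 30 libraries and 5 above a log2 value of 2. Neither (31) held 116 with DESeq2, 69 without a filter, 61 with voom and 14 with no fold threshold. The cause was not tested. Each library left out in turn gave from 141 to 225 interaction genes (69 to 113 positive, 61 to 114 negative), 274 to 492 for the tissue difference in Fgfr2+ FB and 183 to 341 in PDGFRα hi FB. It gave 49 to 89 genes in Fgfr2+ FB only, 54 to 98 in PDGFRα hi FB only, 6 to 12 opposite, 5 to 9 in the same direction and 18 to 45 in neither.

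Replicate numbers were not taken as pairs. Over all genes tested, same-numbered samples did not deviate together (mean correlation −3.15e-05, −0.104 to 0.0930 over 18 pairs, and 0.000843 over 36 pairs of other numbers). Since genes of low level were included and deviations were taken from means of 3 samples, this check cannot exclude that samples were paired. With the number as a block the interaction was called for 175 genes (88 positive, 87 negative), and the tissue difference for 380 genes in Fgfr2+ FB and 252 in PDGFRα hi FB. The block gave 58, 76, 9, 7 and 25 genes in the 5 patterns, in the order above, and called 71 of the 82 genes. None of the genes whose values the text describes lost its call under the block.

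Each population had 3 samples, and the gate changed with the tissue. The paper speaks of 3 experiments and of subsets of both tissues taken from shared mice, but neither it nor the labels say which libraries share a mouse, and the fits were unpaired. Replicate 3 of small intestinal Fgfr2+ FB had the fewest counts (2245052), which limits genes of low level. Counts with DESeq2 were above those of edgeR in all 10 results, and those of the model of all 30 libraries below. CPM scaled on unfiltered genes, an alternative chosen after seeing the data, differed by a ratio of 0.961 to 1.06.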

Other observations

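The other 6 populations of the series gave these levels for genes described above. Their samples enter only the model of all 30 samples and no other fit. *Nrg1* lay at 41.5, 30.3 and 4.73 CPM in small intestinal smooth muscle cells, 6.81, 14.3 and 8.59 CPM in colonic CD90+ FB and at or below 6.40 CPM in the other 4. *Mmp10* did not exceed 7.59 CPM in any of the 6. *Tgfb3* had 276, 234 and 245 CPM (CD34+ FB) and 318, 247 and 39.6 CPM (pericytes) in the small intestine, 48.6, 167 and 145 CPM in colonic CD81+ FB and between 37.2 and 139.8 CPM in the other 3. *C7* had 544, 392 and 285 CPM in CD34+ FB of the small intestine, 134, 99.8 and 29.2 CPM in colonic CD81+ FB and at most 9.47 CPM in the other 4.

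*Abcc9* was measured at 2139, 2402 and 1866 CPM in small intestinal and 2032, 2611 and 1138 CPM in colonic pericytes. *Kcnj8* had 441, 80.5 and 303 CPM in small intestinal and 352, 902 and 334 CPM in colonic pericytes. In small intestinal PDGFRα hi FB both genes thus lay within or near the range of pericytes, while colonic PDGFRα hi FB lay below it for both.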
